A study of Mus musculus with 12 samples.

Results

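The Cyp4a genes of the mouse encode cytochrome P450 enzymes that put a hydroxyl group on the last carbon of fatty acids. Cyp4a10, Cyp4a12a, Cyp4a12b and Cyp4a14 are described here over the liver samples of one study. They were chosen by name, with earlier results of these data known, and read from the probe sets annotated to a single one of these symbols. They are 4 of 19938 genes measured, and each has 1 such probe set. Liver RNA was hybridised to 12 Affymetrix mouse gene arrays, in 4 groups of 3. The KI_MR mice were homozygous for the Lmna G609G knock-in and ate a diet restricted in methionine, and the KI_CD mice carried the same knock-in and ate the control diet. The WT_MR and WT_CD mice were wild type on the restricted and the control diet. All groups were male C57BL/6N mice of 110 days, on their diets from 7 weeks of age and fasted for 6 hours, and the WT and KI mice came from crosses of heterozygotes. The allele is a model of Hutchinson-Gilford progeria and is present in every tissue, so a liver change need not arise in liver. The labels do not tie each array to its own animal, so the p values measure the spread between samples, which may be technical.

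Omega-hydroxylation turns a fatty acid into a hydroxy acid that alcohol and aldehyde dehydrogenases convert to a dicarboxylic acid, which peroxisomes then shorten. Cyp4a10 and Cyp4a14 are textbook targets of PPARA, the nuclear receptor that fatty acids activate during fasting. They also count among the genes higher in female than in male mouse liver, so hormone-dependent and PPARA-driven are not exclusive labels. Cyp4a12a and Cyp4a12b are male-biased genes of mouse liver and kidney that depend on androgens and on the pulsed male pattern of growth hormone, and their product also makes the vasoactive lipid 20-HETE from arachidonic acid. In the GRCm38.p6 annotation all 4 genes lie in one cluster on chromosome 4. Only pseudogenes stand between Cyp4a12a and Cyp4a12b there, and Cyp4a14 and Cyp4a10 are direct neighbours, followed by Cyp4a31 and Cyp4a32.

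Levels are deposited intensities, in units. Each change is a log2 difference with its SE, taken from 1 limma model of all genes with n = 3 arrays per group. Adjusted p values are those of limma with Benjamini-Hochberg adjustment over the 19938 genes of a comparison, with 0.05 as the threshold. Median intensity per array ran from 82 to 90 units. KI_CD replicate 1 stood apart, with a mean correlation of 0.986 with its group mates, against 0.989 to 0.994 for the other arrays. Pairwise member differences that use it are given with and without it. The 6 hepatocyte markers measured summed to between 66261 and 67488 units in KI_MR, 66356 and 69288 in KI_CD, 60862 and 65183 in WT_MR and 63931 and 66597 in WT_CD. The Lmna allele is a single-base change, which gene-level probe sets do not read, so these data hold no check of the genotype labels.

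The pair of Cyp4a12 genes formed a staircase over the groups. Cyp4a12a had 153, 44 and 54 units in the KI_MR arrays, 182, 332 and 371 in the KI_CD arrays, 727, 1171 and 1270 in the WT_MR arrays and 4312, 3400 and 4245 in the WT_CD arrays. Cyp4a12b had 107, 44 and 44 units in KI_MR, 152, 302 and 293 in KI_CD, 409, 676 and 952 in WT_MR and 3691, 2707 and 3896 in WT_CD. For both genes no group overlapped another: every KI_MR array lay below every KI_CD array, these below every WT_MR array and these below every WT_CD array. Complete separation of the 4 groups in any order was seen for 16 genes, 0.0802% of those measured, and this order for 2 genes, 0.01%, which were Cyp4a12a and Cyp4a12b. All genes were searched for it after the Cyp4a12 values were seen, so that share is no test of how rare the order is. The values of KI_MR replicates 2 and 3 were close to the lower quartile of gene levels in their arrays (5.55 and 5.49, log2), against 5.46 and 5.75 for Cyp4a12a and 5.46 in both for Cyp4a12b. In those 2 of 3 arrays the signal is therefore near the level of the dimmest genes on the array.

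**Figure D1:**
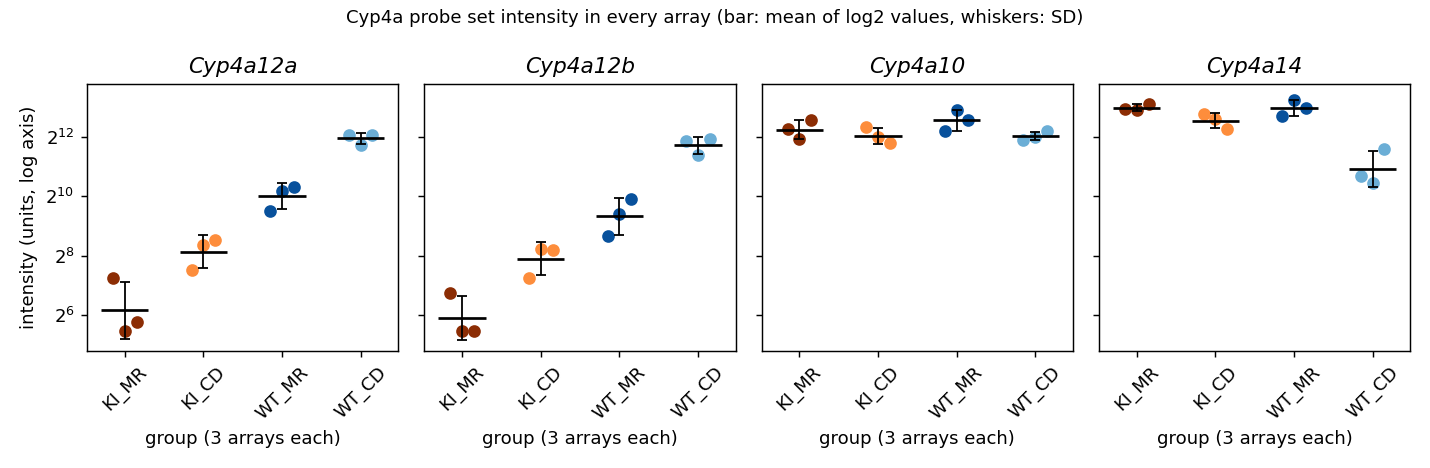
Intensity of the 4 Cyp4a probe sets in each array (log axis, units), by group. Points are arrays, bars the mean of the log2 values and whiskers the SD. Cyp4a12a and Cyp4a12b step up in the order KI_MR, KI_CD, WT_MR and WT_CD without overlap, Cyp4a10 stays between 3545 and 7659 units, and Cyp4a14 is at 1404 to 3126 units in WT_CD and at 4939 units or more in the other groups.

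On the control diet both Cyp4a12 genes were far lower in knock-in than in wild-type liver. The KI_CD level of Cyp4a12a was 14.1-fold below that of WT_CD (-3.81 ± 0.42, limma adjusted p = 0.00722), and that of Cyp4a12b 14.3-fold below (-3.83 ± 0.40, adjusted p = 0.00653). In this comparison 0.0201% of all genes were called lower and 10.4% were lower without overlap of the groups. Without KI_CD replicate 1, which held the lowest Cyp4a12 values of its group, the changes were -3.50 and -3.51 (limma adjusted p = 0.0178 and 0.0134). Both calls were lost without WT_CD replicate 1 (-3.75 and -3.77, adjusted p = 0.0618 and 0.0534).

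On the restricted diet both Cyp4a12 genes were again lower in the knock-in. Since KI_MR replicates 2 and 3 lay near the dimmest genes, folds against KI_MR are given with dim values raised to each array's lower quartile. These folds are point estimates that may understate the change of transcript, and differences are given as measured. Cyp4a12a was 14.1-fold lower in KI_MR than in WT_MR (-3.85 ± 0.42, limma adjusted p = 0.00701). Cyp4a12b was 10.5-fold lower (-3.44 ± 0.40, limma adjusted p = 0.0101). In this comparison 0.211% of all genes were called lower and 8.82% were lower without overlap. In the fit with dim values raised the differences were -3.81 and -3.39. The calls were lost without KI_MR replicate 3 (-3.64 and -3.22, limma adjusted p = 0.0519 and 0.0638) and without WT_MR replicate 2 (-3.75 and -3.40, adjusted p = 0.0617 for both). Averaged over both diets, the genotype difference was -3.83 ± 0.30 for Cyp4a12a and -3.64 ± 0.28 for Cyp4a12b (limma adjusted p = 3.37e-04 for both), where 0.838% of genes were called lower and 2.81% in either direction. Neither call was lost when any 1 of the 12 arrays was left out.

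Levels of both Cyp4a12 genes were lower on the restricted than on the control diet in each genotype, though not each difference passed. In wild-type liver Cyp4a12b fell by 2.40 on the log2 scale (SE 0.40, 5.29-fold lower in WT_MR than in WT_CD, limma adjusted p = 0.0334), and Cyp4a12a was at -1.95 ± 0.42 (3.86-fold, adjusted p = 0.0988). There 0.115% of genes were called lower and 5.17% were lower without overlap. In knock-in liver Cyp4a12b was at -2.01 ± 0.40 (3.90-fold lower in KI_MR than in KI_CD with dim values raised, limma adjusted p = 0.0999). Cyp4a12a was at -1.98 ± 0.42 (3.86-fold lower with dim values raised, limma adjusted p = 0.132). Neither passed, with 0.115% of genes called lower and 6.99% lower without overlap. The Cyp4a12b call in wild type was lost without any of WT_CD replicates 1, 2 and 3 (limma adjusted p = 0.154, 0.0681 and 0.127), WT_MR replicates 1 and 2 (0.141 and 0.137) and KI_MR replicate 3 (0.05 when rounded, and above the threshold). Cyp4a12a in wild type passed without KI_CD replicate 1 (adjusted p = 0.0461) or KI_MR replicate 1 (0.0193). In knock-in liver Cyp4a12b passed without KI_CD replicate 1 (-2.33, limma adjusted p = 0.0383) and Cyp4a12a stayed just short (-2.30, adjusted p = 0.0553), and Cyp4a12a did without KI_MR replicate 1, the highest of its group (-2.53, adjusted p = 0.0237).

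Averaged over the genotypes, both Cyp4a12 genes fell with the restricted diet, Cyp4a12a at -1.97 ± 0.30 (limma adjusted p = 0.0103) and Cyp4a12b at -2.20 ± 0.28 (adjusted p = 0.00458). These calls were kept in each fit with 1 array left out. The share of genes called was 0.602% lower and 1.21% in either direction. The diet effect in the knock-in minus that in wild type was -0.033 for Cyp4a12a (95% interval -1.34 to 1.28) and 0.40 for Cyp4a12b (-0.85 to 1.64), both with limma adjusted p = 1. The KI_MR values near the dimmest genes enter these too, and the intervals still allow the diet effect to differ between the genotypes by more than 1 log2 unit. No gene passed in that test (0%), and 824 had an unadjusted p under 0.05.

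Cyp4a14 was low in WT_CD and high in the other 3 groups. It had 7800, 7729 and 8874 units in KI_MR, 6966, 6309 and 4939 in KI_CD, 6638, 9755 and 8068 in WT_MR and 1654, 1404 and 3126 in WT_CD. All 9 arrays of the first 3 groups lay above all WT_CD arrays. The KI_MR arrays lay above the KI_CD arrays, whereas the WT_MR arrays overlapped both knock-in groups.

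Cyp4a14 rose with restriction in wild type, by 2.06 ± 0.26 or 4.16-fold in WT_MR over WT_CD (limma adjusted p = 0.00686), in a comparison where 0.211% of genes were called higher and 6.35% were higher without overlap. That call was lost without WT_CD replicate 1 (1.94, limma adjusted p = 0.0552). In knock-in liver the change was 0.43 ± 0.26, or 1.35-fold in KI_MR over KI_CD (limma adjusted p = 0.806), where 0.0602% of genes were called higher and 3.67% were higher without overlap. Without KI_CD replicate 1 it was 0.54 (adjusted p = 0.742). Averaged over the genotypes the diet effect was 1.25 ± 0.18 (limma adjusted p = 0.00865, with 0.607% of genes called higher), and it passed in each fit with 1 array left out.

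The genotype difference of Cyp4a14 was seen on the control diet. Its KI_CD level was 3.10-fold that of WT_CD (1.63 ± 0.26), just short of the threshold (limma adjusted p = 0.0536), where 0.0602% of genes were called higher and 8.57% were higher without overlap. WT_CD replicate 3 held the highest Cyp4a14 value of its group, and without it the difference was 1.98 (adjusted p = 0.0104). Without KI_CD replicate 1 it was 1.53 (limma adjusted p = 0.0921). On the restricted diet the difference between KI_MR and WT_MR was 0.011 ± 0.26 (95% interval -0.55 to 0.57, adjusted p = 0.997), and the groups overlapped, where 7.5% of genes were higher without overlap. The average over both diets passed at 0.82 ± 0.18 (limma adjusted p = 0.0393, with 1.98% of genes called higher), and that call was lost in 10 of the 12 fits with 1 array left out (adjusted p up to 0.104). It remained without WT_CD replicate 3 and without WT_MR replicate 3. The difference between the diet effects, knock-in minus wild type, was -1.62 ± 0.36. Its unadjusted p was 9.06e-04 and its limma adjusted p 0.966, so a difference between the genotypes in the response to diet was not shown over all genes.

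Cyp4a10, the other PPARA target, passed in no comparison. It had 4930, 3905 and 6048 units in KI_MR, 5145, 4134 and 3545 in KI_CD, 4742, 7659 and 6117 in WT_MR and 3858, 4106 and 4675 in WT_CD. All WT_MR arrays lay above all WT_CD arrays, if narrowly, as did 6.35% of genes, and the groups of the other 3 pairwise comparisons overlapped. The change in WT_MR over WT_CD was 0.53 ± 0.20 (95% interval 0.089 to 0.97, limma adjusted p = 0.465), and in KI_MR over KI_CD 0.21 ± 0.20 (-0.23 to 0.65, adjusted p = 0.958). The difference between KI_CD and WT_CD was 0.0086 ± 0.20 (-0.43 to 0.45, limma adjusted p = 1), and between KI_MR and WT_MR -0.31 ± 0.20 (-0.75 to 0.13, adjusted p = 0.488). Without KI_CD replicate 1 the difference between KI_CD and WT_CD was -0.13, and that between KI_MR and KI_CD 0.35. Its interval on the control diet leaves room for a genotype difference of up to 0.45 upward.

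**Figure D2:**
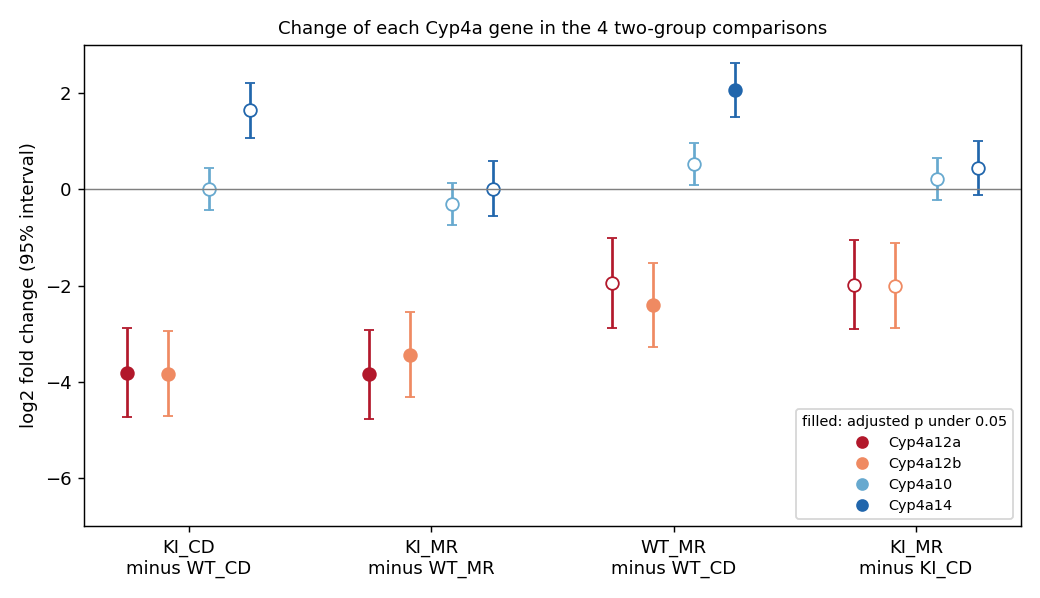
Log2 fold change of each Cyp4a gene in the 4 pairwise comparisons, with 95% intervals from the limma fit. Filled points have an adjusted p under 0.05. The Cyp4a12 genes lie between -3.85 and -3.44 in both genotype comparisons and between -2.40 and -1.95 in both diet comparisons, while Cyp4a14 is at 1.63 and 2.06 in the comparisons with WT_CD and near 0 in KI_MR minus WT_MR.

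The Cyp4a12 genes were set against the PPARA targets Cyp4a10 and Cyp4a14 by ratios within each array. Any factor common to an array cancels there. As those targets are also female-biased, the ratios do not part hormone from PPARA control. A ratio between 2 probe sets has no meaning as a level, and only its change between groups is used. The log2 ratio of Cyp4a12a to Cyp4a10 averaged -6.10 ± 0.96 in KI_MR, -3.91 ± 0.82 in KI_CD, -2.56 ± 0.25 in WT_MR and -0.084 ± 0.22 in WT_CD (SD, n = 3 each). For each of the 4 pairs of a Cyp4a12 gene with Cyp4a10 or Cyp4a14, the average genotype difference of the ratio lay between -4.65 and -3.48 and the average diet difference between -3.45 and -2.33. Each of these 8 differences had p = 0.005 in a two-sided exact permutation test within strata, the smallest the 400 arrangements can give. Over the 12 ratio tests made, 6 pairs by 2 factors, the Benjamini-Hochberg value of that p is 0.00667. The 8 differences largely restate the separation of the groups by the Cyp4a12 levels, and they share genes, so they are no further support. Over all arrays Cyp4a12a spanned 6.61 log2 units, Cyp4a14 2.80 and Cyp4a10 1.11.

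Cyp4a14 and Cyp4a10 also parted from each other. Their log2 ratio averaged 0.73 ± 0.22 in KI_MR, 0.51 ± 0.09 in KI_CD, 0.41 ± 0.07 in WT_MR and -1.12 ± 0.49 in WT_CD (SD, n = 3 each), and each WT_CD array lay below the other 9. The average genotype difference of the ratio was 0.97 (p = 0.005, Benjamini-Hochberg 0.00667) and the average diet difference 0.88 (p = 0.01, 0.012), by the same exact permutation test. Within the strata the genotype difference was 1.63 on the control and 0.32 on the restricted diet, and the diet difference was 0.22 in the knock-in and 1.53 in wild type. With spans of 2.80 for Cyp4a14 and 1.11 for Cyp4a10, these ratios largely restate the Cyp4a14 levels and are no further support. The Benjamini-Hochberg values are taken over all ratio tests, those of the Cyp4a12 genes included.

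**Figure D3:**
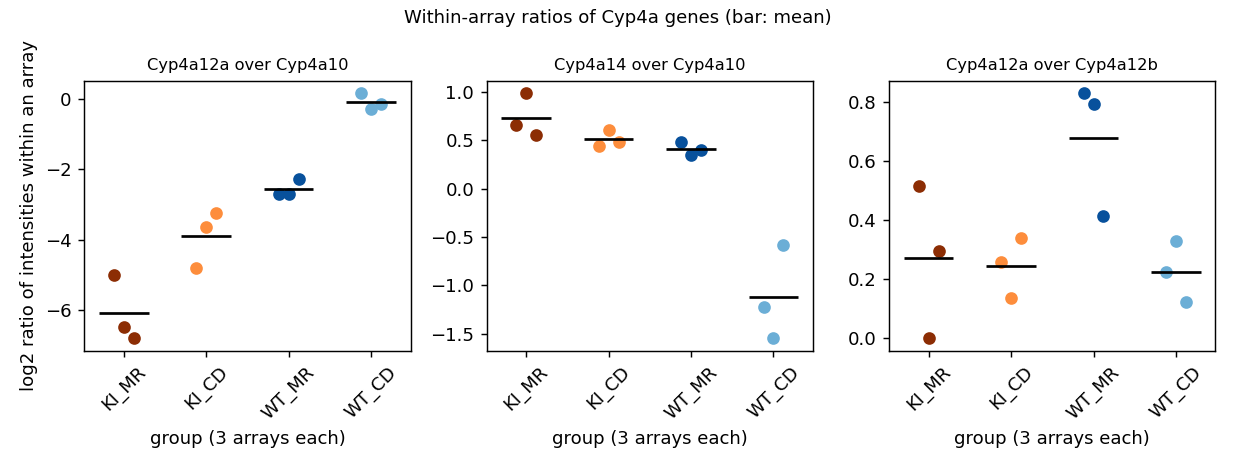
Within-array log2 ratios of Cyp4a intensities by group, with a point per array and the mean as a bar. The ratio of Cyp4a12a to Cyp4a10 steps up in the order shown, that of Cyp4a14 to Cyp4a10 is lower in every WT_CD array than in the other 9 arrays, and that of Cyp4a12a to Cyp4a12b stays between 0 and 0.83.

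Close paralogs can share signal on such arrays, and the values show where this bears on the members. Cyp4a12a and Cyp4a12b deviated from their group means to the same side in 12 of 12 arrays. Their log2 ratio spanned 0.83 over all arrays, against 6.61 for the Cyp4a12a level and 6.47 for that of Cyp4a12b. The ratio averaged 0.27 ± 0.26 in KI_MR, 0.25 ± 0.10 in KI_CD, 0.68 ± 0.23 in WT_MR and 0.23 ± 0.10 in WT_CD (SD, n = 3 each). Its average diet difference of 0.24 and genotype difference of -0.19 had p = 0.1 and 0.185 (exact permutation test, Benjamini-Hochberg 0.109 and 0.185). The data hold no probe sequences, so how far the 2 probe sets read the same transcripts was not tested, and their results are not counted as independent.

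Cyp4a10 has a second probe set that is annotated jointly to Cyp4a32, Cyp4a31 and Cyp4a10, and Cyp4a31 has one of its own. The shared probe set had 5234, 4150 and 5987 units in KI_MR, 5710, 4199 and 3767 in KI_CD, 4719, 7444 and 5607 in WT_MR and 4548, 3990 and 5454 in WT_CD. Its changes were -0.044 in KI_CD over WT_CD, -0.20 in KI_MR over WT_MR, 0.33 in WT_MR over WT_CD and 0.18 in KI_MR over KI_CD, none of which passed by limma over all 35512 probe sets. Cyp4a31, a close relative of Cyp4a10, was at -0.0048, -0.39, 0.65 and 0.26 in the same comparisons, and none of these passed either. Cyp4a10 deviated from its group means to the same side as Cyp4a31 and as the shared probe set in 11 of 12 arrays, and to the same side as Cyp4a14 in 10. Signal of Cyp4a10 and of its relatives Cyp4a31 and Cyp4a32 cannot be told apart on the shared probe set. The log2 ratio of the Cyp4a10 probe set to that of Cyp4a31 spanned 0.57 over all arrays, and its ratio to the shared probe set 0.36. The Cyp4a10 level itself spanned 1.11. How far the Cyp4a10 probe set also reads transcripts of these relatives was not tested, so its values may include their signal.

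The gene lists used from here on were drawn up with earlier results of these data known. Shares of all genes beside their counts therefore give a scale and are no test. Of 11 other Cyp4 genes measured of 16 listed, none passed in the 4 pairwise comparisons, against 0.0802% to 0.471% of all genes. With the diet effect averaged over genotypes 2 of 11 fell, where 0.602% of all genes were lower: Cyp4f14 by 0.87 (SE 0.14, limma adjusted p = 0.0118) and Cyp4f15 by 0.40 (SE 0.07, adjusted p = 0.0192), both hydroxylases of the Cyp4f branch that act on leukotrienes and fatty acids. The Cyp4f14 call was kept in every fit with 1 array left out, and that of Cyp4f15 was lost in 7 of 12. Cyp4f14 fell with diet as the Cyp4a12 genes did, while Cyp4a14 rose.

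Other male-biased liver genes give the setting for Cyp4a12. Of 19 measured, not counting Cyp4a12 itself, the median was -1.30 in KI_CD over WT_CD with all 19 below 0 (all genes -0.025), and 2 were lower, the elongase gene Elovl3 (-4.56 ± 0.59, limma adjusted p = 0.0176) and the vaspin gene Serpina12 (-2.29 ± 0.24). Elovl3 lost its call without WT_CD replicate 1 or 2, and Serpina12 without WT_CD replicate 1. The share of all genes lower was 0.0201%. The median was -1.02 and 3 were lower without KI_CD replicate 1. In WT_MR over WT_CD the median was -1.79 and 5 were lower, against 0.115% of all genes, among them the steroid dehydrogenase gene Hsd3b5 (-6.68 ± 0.83) and complement C6 (-2.65 ± 0.27). The count was 11 without KI_CD replicate 1. With 1 array left out the call of Hsd3b5 was lost in 2 of 12 fits, that of Mup21 in 5 and that of Moxd1 in 10, while those of C6 and Serpina12 were kept. Some of these genes were then near the dimmest genes in WT_MR: their mean log2 level in WT_MR was 5.31 for Hsd3b5, 5.22 for Moxd1 and 5.92 for Serpina12. In KI_MR over WT_MR the list had a median of -0.28 and none passed (2 without KI_CD replicate 1), with Elovl3 at -3.11 (limma adjusted p = 0.051). Other listed genes were well above the dimmest genes in WT_MR. Mean log2 levels in WT_MR and KI_MR were 10.34 and 10.15 for Cyp2d9 and 9.30 and 9.27 for Selenbp2. They were 11.15 and 10.22 for Nudt7 and 8.53 and 6.82 for Slco1a1. The median covers genes of both kinds, and how Cyp4a12 compares with the list on the restricted diet was not tested.

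Some female-biased genes, Cyp4a10 and Cyp4a14 not counted, were higher where Cyp4a12 was lower. Of 15 measured, 2 were higher in KI_CD over WT_CD, against 0.0602% of all genes, the P450 gene Cyp2b9 (4.59 ± 0.47, limma adjusted p = 0.00653) and the transcription factor gene Tox (1.19 ± 0.17), and 7 were higher with the diet effect averaged over genotypes, against 0.607%, Cyp2b9 (2.76) and Cyp2b13 (3.35) included. Of those 7 calls, that of Trim24 was lost in 10 of 12 fits with 1 array left out, that of Fmo2 in 8 and that of Acot3 in 5, and the other 4 were kept. The median of the list in KI_CD over WT_CD was 0.82, or 0.31 without KI_CD replicate 1. With all arrays Cyp4a14 was at 1.63 there and Cyp4a10 at 0.0086. The Tox call on the control diet was lost in 7 of 12 fits with 1 array left out. Among 12 genes of growth hormone and androgen signalling, Cux2, a female-biased regulator, was the 1 called: it rose by 1.20 ± 0.15 in KI_MR over KI_CD (limma adjusted p = 0.0137) and by 0.89 ± 0.15 in KI_MR over WT_MR (adjusted p = 0.0339). In these comparisons 0.0602% and 0.261% of all genes were called higher. The first Cux2 call was lost without KI_CD replicates 2 or 3 or KI_MR replicate 3, the second in 9 of 12 fits with 1 array left out. Bcl6, the male-biased repressor opposed to it, was at -1.58 in KI_CD over WT_CD (adjusted p = 0.392), the growth hormone receptor gene Ghr at -0.55 (0.253) and Igf1 at -0.03 (0.915), by limma.

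Of 24 other PPARA-related genes measured, the receptor gene included, none passed in the 4 pairwise comparisons, where 0.0802% to 0.471% of all genes did. When KI_CD replicate 1 was left out, 3 were lower in KI_MR over WT_MR and 1 was higher in WT_MR over WT_CD. With all arrays their medians were -0.22 in KI_CD over WT_CD (18 of 24 below 0), -0.48 in KI_MR over WT_MR (23 of 24 below 0), 0.26 in WT_MR over WT_CD (19 of 24 above 0) and -0.095 in KI_MR over KI_CD (14 of 24 below 0). Without KI_CD replicate 1 the last of these turned to 0.093 (15 of 24 above 0), and that in KI_CD over WT_CD was -0.35 (21 of 24 below 0). Averaged over diets 5 were lower in the knock-in (20.8%, against 0.838% of all genes), whereas Cyp4a14 was higher: Ppara itself (-0.37 ± 0.08, limma adjusted p = 0.0335), the carnitine carrier gene Slc25a20 (-0.54), the peroxisome gene Pex11a (-0.76), the dienoyl-CoA reductase gene Decr1 (-0.71) and the fatty acid binding protein gene Fabp1 (-0.38). These calls were lost in 7 to 9 of the 12 fits with 1 array left out. The count of 5 was 8 without KI_CD replicate 1.

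**Figure D4:**
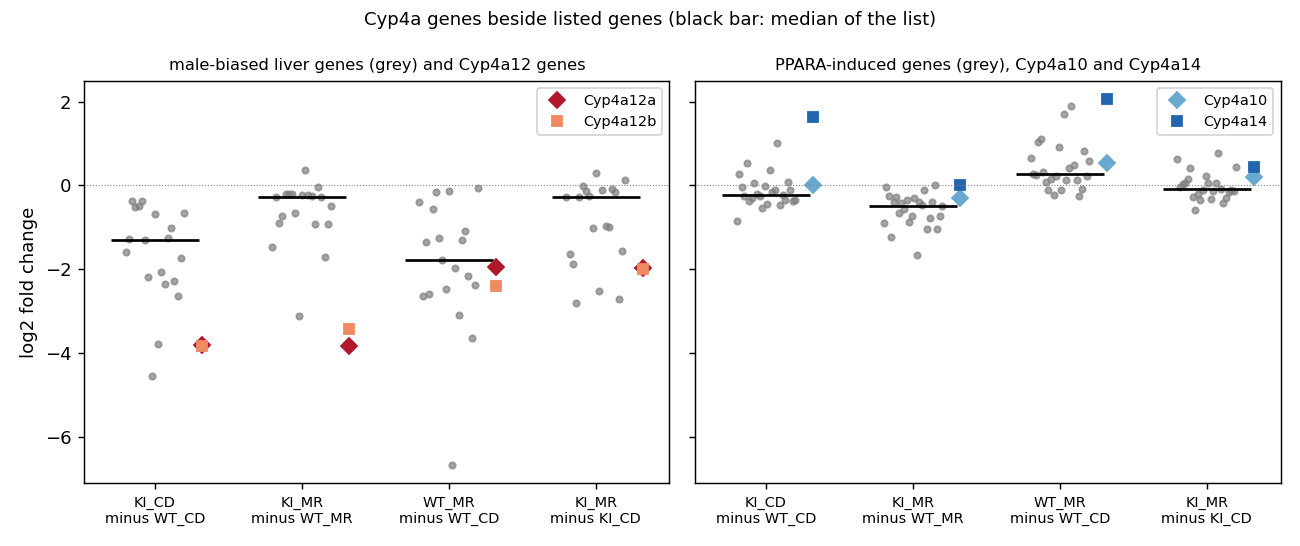
Log2 fold changes of listed genes (grey points, with the list median as a bar) and of the Cyp4a genes beside them, in the 4 pairwise comparisons. On the left are 19 male-biased genes with Cyp4a12a and Cyp4a12b, at -3.85 and -3.44 in KI_MR minus WT_MR. In WT_MR some listed genes were near the dimmest genes and others were well above them. On the right are 24 PPARA-related genes with Cyp4a10, which lies among them, and Cyp4a14, at 1.63 in KI_CD minus WT_CD where the list median is -0.22.

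Steps that lie beyond the Cyp4a enzymes were measured by 18 of 21 listed genes, some of them also PPARA targets. In the pairwise comparisons 1 passed: Scp2, whose products act in peroxisomal thiolysis and lipid transfer. It was lower in WT_MR than in WT_CD (-0.70 ± 0.12, limma adjusted p = 0.0462), where 0.115% of all genes were called lower. That call was lost in 10 of 12 fits with 1 array left out. Averaged over genotypes Scp2 fell by 0.65 with restriction (limma adjusted p = 0.0063, with 0.602% of all genes called lower), a call kept in all 12 fits. Averaged over diets the knock-in had lower Abcd3 (-0.56 ± 0.11, limma adjusted p = 0.0321), the peroxisomal importer of long-chain and dicarboxylic acids, and lower Acot8 (-0.40 ± 0.09, adjusted p = 0.038), a peroxisomal thioesterase. There 0.838% of all genes were called lower, and the calls of Abcd3 and Acot8 were lost in 6 and 7 of the 12 fits. Adh4, an alcohol dehydrogenase that acts on omega-hydroxy acids, was at -0.24 in KI_CD over WT_CD and -0.87 in KI_MR over WT_MR, and neither passed.

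By likeness of pattern over the 12 arrays (Pearson correlation of log2 levels, a description in which arrays share groups), Cyp4a12a was most like Keg1 (0.95), Elovl3 (0.94), Ulk2 (0.94), Ociad2 (0.93) and Ranbp9 (0.92). Cyp4a12b was most like Elovl3 (0.96), Rarres1 (0.95), Ociad2 (0.94), Ulk2 (0.94) and Nudt7 (0.93). Keg1 encodes a relative of glycine acyltransferases, Ulk2 an autophagy kinase and Nudt7 a peroxisomal coenzyme A hydrolase. Elovl3 had the largest range of these, with mean log2 levels of 5.48 in KI_MR, 6.49 in KI_CD, 8.59 in WT_MR and 11.05 in WT_CD. Ranbp9 had means between 8.77 and 9.09, so a like pattern can go with a small change. Cyp4a14 was most like Snx16 (0.95), Nicn1 (0.93), Prim1 (0.92), Crip2 (0.91) and Htra2 (0.91), whose group means spanned under 1 log2 unit, and none of these is on the PPARA list. Cyp4a10 was most like Cyp4a31 (0.96), with Snord85, Rsad1, Mink1 and Selenoi between 0.87 and 0.88.

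Bulk liver RNA cannot tell fewer cells of a type from less RNA per cell. On the control diet the sums of the 9 Kupffer cell and macrophage markers did not overlap between the genotypes. They were 6332 to 7992 units in KI_CD and 8387 to 10196 in WT_CD, with 8 of 9 genes below 0. On the restricted diet all 9 were below 0 (median -0.18), and the sums overlapped (6900 to 8038 in KI_MR, 6474 to 11636 in WT_MR). None of the 9 passed in either comparison. Some other lists leaned the same way: on the control and restricted diet 5 and 6 of 6 lymphocyte markers were below 0. So were 3 and 4 of 4 pancreas markers. Hepatocyte markers leaned the other way, with 5 and 6 of 6 above 0, as did cholangiocyte markers, with 3 and 4 of 5 above 0. Endothelial markers were mixed, with 3 of 7 above 0 on each diet, and so were neutrophil markers, with 2 and 3 of 6 above 0. Sums of the 8 stellate cell and fibroblast markers did not overlap on the restricted diet, with 6693 to 7555 units in KI_MR and 5297 to 5812 in WT_MR. Yet 5 of the 8 genes were below 0 in that comparison (median -0.079), and the largest change was 1.18 upward. In WT_MR all 8 were below their WT_CD level, and the WT_CD sums, 5996 to 6648 units, did not overlap those of WT_MR. The part of these cells in the Cyp4a differences was not tested. Kidney tubule markers, of interest since kidney also expresses Cyp4a12, summed to 482 to 489 units in KI_MR, 456 to 510 in KI_CD, 455 to 592 in WT_MR and 510 to 561 in WT_CD over 7 genes. All 7 were below 0 in both genotype comparisons (medians -0.086 and -0.12), and none passed.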

How the data were processed

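The authors deposited 1 intensity per probe set and array, each a whole number between 10 and 20042. Their background correction and scaling are not given in the sources used here. Deposited intensities were put on the log2 scale with no further scaling. Of 35512 probe sets, 21789 carried 1 gene symbol, 1621 several and 12102 none. The probe set with the highest mean was kept per gene. Entrez identifiers of 19856 genes, all 4 members included, matched the GRCm38.p6 gene table.

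One model with 4 group means was fitted to all 12 arrays with limma 3.58.1 in R 4.3.3, with 8 residual and 3.14 prior degrees of freedom, and two-sided tests. The 7 contrasts were the 2 genotype and 2 diet differences, their averages and their interaction. The fit was tested on simulated data. The precision rests on 3 arrays per group. Python 3.11.15 was used for tables and figures.

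The members and lists were chosen with earlier results of these data known. Listed genes are named by smallest p in KI_CD minus WT_CD and KI_MR minus KI_CD or by passing the threshold. Alternatives were quantile normalization, median centring, filters on dim genes, other uses of probe sets, other priors and weights, the compared arrays alone, a replicate block, an offset of 50, and each array left out. Raising dim values to the lower quartile, and the fits of listed genes with arrays left out, were added after the data were seen.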

Additional observations from a re-analysis of the deposited data

How the results depend on the processing

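Of 660 values of a member under another setting, 595 kept their direction and their side of the threshold. Of the rest, 32 lost a call, 13 gained one and 20 changed sign. The 595 include values that were called in neither fit, so their share does not measure how firm the calls are. Fitting only the 6 compared arrays ended the genotype calls of Cyp4a12a (-3.81 and -3.85 on the control and restricted diet, limma adjusted p = 0.062 and 0.0541) and Cyp4a12b (-3.83 and -3.44, adjusted p = 0.062 and 0.0552), and it made the diet call of Cyp4a12a in wild type (-1.95, adjusted p = 0.0134). Fewer arrays leave fewer degrees of freedom there. The diet call of Cyp4a12b in wild type (-2.40) ended with all probe sets tested (limma adjusted p = 0.0708), a trend and robust prior (0.0702) and the replicate block (0.0658). Cyp4a14 in KI_CD minus WT_CD passed with median centring (1.68), without the dimmest 25% or 50% of genes (1.63 each), with the trend and robust prior (1.63) and with array weights (1.66). Its average genotype difference missed with all probe sets tested (0.82) and with an offset of 50 (0.81). Array weights, which put a weight of 16.7 on WT_MR replicate 1, made diet calls of Cyp4a12a in wild type (-2.38) and Cyp4a12b in the knock-in (-2.07).

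Sign changes concerned values that passed in no setting: Cyp4a10 in KI_CD minus WT_CD (-0.015 with quantile normalization, -0.068 with array weights), in KI_MR minus WT_MR (0.023) and in the interaction (0.091, both with array weights), the interaction of Cyp4a12a (0.37 with array weights, 0.49 with the offset), and Cyp4a14 in KI_MR minus WT_MR (-0.028 with quantile normalization). With 1 array left out, Cyp4a10 in KI_CD minus WT_CD ran from -0.13 to 0.14, the interaction of Cyp4a12a from -0.58 to 0.32 and of Cyp4a12b from -0.031 to 0.68, and Cyp4a14 in KI_MR minus WT_MR from -0.13 to 0.15. On the control diet the genotype difference ran from -4.01 to -3.50 for Cyp4a12a, -4.01 to -3.51 for Cyp4a12b and 1.40 to 1.98 for Cyp4a14. On the restricted diet it ran from -4.40 to -3.50 for Cyp4a12a and -3.86 to -3.15 for Cyp4a12b. The diet difference in wild type ran from -2.10 to -1.70 for Cyp4a12a, -2.69 to -2.08 for Cyp4a12b and 1.82 to 2.40 for Cyp4a14, and in the knock-in from -2.53 to -1.63 and -2.43 to -1.79 for the Cyp4a12 genes. The average genotype difference of Cyp4a14 ran from 0.71 to 0.995. Except where named, the cause of a change was not tested.

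Counts over all genes moved more. The 16 genes of KI_CD minus WT_CD were 0 to 168 under other settings and 2 to 32 with an array left out; the 35 of KI_MR minus KI_CD 0 to 130 and 7 to 94; the 94 of KI_MR minus WT_MR 15 to 4612 and 3 to 226; the 65 of WT_MR minus WT_CD 47 to 2204 and 17 to 199. The average genotype count of 561 was 368 to 4801 and 138 to 1945, the average diet count of 241 was 187 to 1369 and 112 to 470, and the interaction count of 0 was 0 and 0 to 3. The highest of each came with array weights, or with an array left out. The replicate block gave 177 for KI_MR minus WT_MR and 960 for the average genotype difference. The labels do not say that same-numbered arrays are pairs, and the correlation of their deviations ran from -0.059 to 0.24. However, 11 of 12 arrays correlated best with their own number, a hint of shared numbering from the data and not from the design. Signal over background limits Cyp4a12 in KI_MR, where raising dim values to the lower quartile gave -3.81 and -3.39 against WT_MR.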

Other observations

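Complete separation of the 4 groups was looked at for all genes after the Cyp4a12 values were seen. The 16 genes with it included the mirror image of the Cyp4a12 order, lowest in WT_CD, then WT_MR, KI_CD and KI_MR, in Acnat2, an acyltransferase gene, and Adat2, a tRNA deaminase gene. The P450 genes Cyp2c39 and Cyp39a1, the second an oxysterol hydroxylase, and the ribosomal protein gene Rps18 were lowest in WT_CD and highest in KI_MR with KI_CD below WT_MR. These are orders of measured values and carry no test.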
